A study of Mus musculus with 12 samples.

Results

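Immediate early genes are the genes that a neuron transcribes within minutes of being activated, before any new protein has to be made. Calcium entry and cyclic AMP act through kinases on factors that already sit at their promoters, CREB and serum response factor among them, and the RNA is then broken down quickly. Their level in a piece of brain is therefore widely used as a trace of recent activity, and in the striatum dopamine and glutamate input are known to induce them. The 10 genes described here are Fos, Fosb and Junb, which encode subunits of the AP-1 transcription factor, the zinc finger factors Egr1, Egr2 and Egr4, the synaptic gene Arc, the neuronal factor Npas4, the nuclear receptor Nr4a1 and the phosphatase gene Dusp1. They were taken as every probe whose single symbol in the platform annotation is one of these names, which gave 12 of 45281 probes and 10 of 19057 genes.

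RNA came from the caudate putamen, the dorsal striatum, of male C57BL/6J mice aged 12 weeks, and was read on single-colour Illumina bead arrays. In the ethanol group (6 samples) the mothers had drunk 10% (v/v) ethanol voluntarily from 0.5 to 8.5 days after conception, and the control group (6 samples) was of the same strain, sex, age and tissue. What control mothers drank, and whether each sample is its own mouse or litter, is not given in the labels, so a p-value here covers only how far these 12 samples scatter. Each of 2 chips carried 3 samples of each group. Exposure ended long before the tissue was taken, and no stimulus before death is described, so the levels are those of mice with no recorded challenge.

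The arrays detected between 19452 and 21949 probes each, with raw median intensities of 136.1 to 153.2. A probe was tested where its detection p was under 0.05 on at least 6 arrays, which kept 20296 probes (44.8%) of 10933 genes. Of 15 listed marker names of striatal projection neurons, 11 were tested, Drd1, Drd2, Penk and Tac1 included, while Adora2a and Adcy5 were among those with no tested probe. Their mean log2 level was 11.84 to 12.29 in ethanol samples and 12.04 to 12.23 in control samples. In bulk tissue, fewer cells of a type and less RNA per cell cannot be told apart.

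Of the 10 genes, 9 had a tested probe, and each of these had exactly 1 probe detected on all 12 arrays. Nr4a1, an orphan nuclear receptor gene induced with the others, had a single probe that was not well above background on any array. Its raw intensity was 116.3, 132.95 and 150.4 (lowest, median, highest) in ethanol samples and 122.4, 127.7 and 142.8 in control samples, and it was not tested. The second probes of Junb and Npas4 were likewise detected on 0 arrays. Levels below are log2 intensities after background correction and quantile normalization, and they compare samples for 1 gene, never 1 gene with another.

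Promoter sequences are shown as a feature of these genes that the arrays do not measure, and they were not tested against the levels. In the RefSeq promoter table (GRCm38.p6), 8 of the 10 genes have an entry, and Arc and Egr1 are not among them. The 200 bases before the start site were searched on both strands. The cAMP response element core TGACG, which CREB binds, was in 8 of 8 genes, against 17.5% of the 27025 genes in the table. The full element, TGACG followed by TCA, was in Dusp1 alone (1.69% of genes), and the AP-1 site TGANTCA in 0 of 8 (6.36%). A serum response CArG box was in Egr2 (1.32%), the EGR site GCGNGGGCG in Fosb and Nr4a1 (4.89%), and the TATA box TATAAA in Fos (11.7%). These matches are letters in a window and do not show binding.

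The 5 windows below are those of Fos, Junb, Egr2, Npas4 and Dusp1. They run 5′ to 3′ on the gene's strand, ending at the base before the start site, with the matched motifs in capitals. Fos is chr12:85473690-85473889 (plus strand), with cores starting 129 and 66 bases upstream and the TATA box at 33. Junb is chr8:84978749-84978948 (minus strand), with a core at 106. Egr2 is chr10:67537669-67537868 (plus strand), 1 of 5 windows for that gene, with cores at 111 and 55 and the CArG box at 72. The Egr2 window chr10:67537366-67537565, not shown, had the CArG box and no core. Npas4 is chr19:4989972-4990171 (minus strand), with cores of opposite strand at 179 and 169. Dusp1 is chr17:26508473-26508672 (minus strand), with a core at 191 and the full element at 143.
Fos: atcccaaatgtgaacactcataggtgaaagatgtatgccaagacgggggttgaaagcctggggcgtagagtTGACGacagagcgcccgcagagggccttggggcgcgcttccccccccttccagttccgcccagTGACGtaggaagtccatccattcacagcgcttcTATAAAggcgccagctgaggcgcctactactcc
Junb: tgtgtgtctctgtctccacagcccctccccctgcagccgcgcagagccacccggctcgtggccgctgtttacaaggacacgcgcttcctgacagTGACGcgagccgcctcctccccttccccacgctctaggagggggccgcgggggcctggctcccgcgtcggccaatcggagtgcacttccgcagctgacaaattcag
Egr2: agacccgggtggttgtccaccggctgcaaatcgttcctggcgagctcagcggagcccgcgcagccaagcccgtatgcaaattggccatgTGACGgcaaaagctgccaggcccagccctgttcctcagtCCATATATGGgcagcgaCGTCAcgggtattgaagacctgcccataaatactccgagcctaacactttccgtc
Npas4: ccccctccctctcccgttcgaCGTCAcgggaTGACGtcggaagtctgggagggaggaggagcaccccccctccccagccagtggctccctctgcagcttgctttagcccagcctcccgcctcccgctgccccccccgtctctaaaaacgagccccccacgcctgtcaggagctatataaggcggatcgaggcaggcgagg
Dusp1: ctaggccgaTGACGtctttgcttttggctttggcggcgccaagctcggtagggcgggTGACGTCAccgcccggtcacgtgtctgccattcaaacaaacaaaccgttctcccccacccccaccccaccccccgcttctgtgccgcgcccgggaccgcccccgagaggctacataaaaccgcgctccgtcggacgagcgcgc

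The first comparison asked whether immediate early genes stood at another level in adult striatum after early prenatal ethanol. None of the 9 passed the threshold, and their groups overlapped for every gene. In limma's test over all probes, 0 of 9 had an adjusted p under 0.05 (percent called over all probes: 0%) and 0 of 9 an unadjusted p under 0.05 (5.79% of all probes, 1175 of them). The members' adjusted p ran from 0.855 to 0.994, and the smallest over all probes was 0.845. Of the 9 genes, 6 were lower and 3 higher in ethanol samples, with a median difference of -0.17 log2 units, while over all 10933 genes 5713 were higher and 5220 lower with a median of 0.0062.

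**Figure D1:**
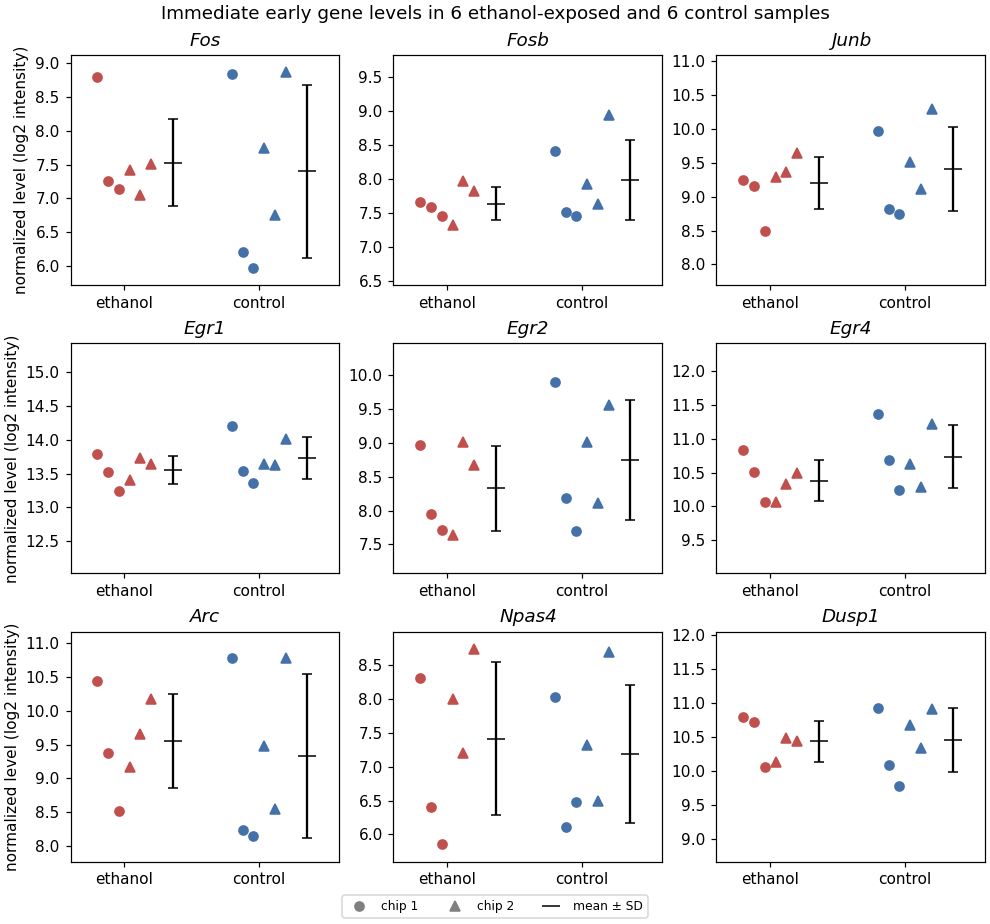
Log2 level of each of 9 immediate early genes (y axis, the same span of log2 units in each panel) in ethanol-exposed and control samples, with points by sample, circles for chip 1, triangles for chip 2, and the mean ± SD at the right of each group. The groups overlap in every panel, and for Fos, Arc and Npas4 samples of 1 group lie over 1 log2 unit apart.

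Among the AP-1 subunits, Fos had levels of 7.04, 7.34 and 8.79 (lowest, median, highest) in ethanol samples and 5.98, 7.26 and 8.86 in control samples. Ethanol 1, control 1 and control 6 were at 8.79 to 8.86, and the other 9 samples were at or below 7.75. The difference was 0.13 ± 0.49 (SE), and its 95% interval allows anything between 0.529-fold and 2.25-fold (limma, adjusted p = 0.987). Fosb, whose truncated product ΔFosB is known to accumulate in striatum under repeated drug exposure, had 7.32, 7.62 and 7.98 in ethanol samples and 7.46, 7.79 and 8.95 in control samples. Its 2 highest values were control 6 and control 1, and the rest of both groups shared 1 range. The Fosb difference was -0.35 ± 0.22 (limma, adjusted p = 0.867). Junb, a partner of both in AP-1, had 8.50, 9.27 and 9.65 in ethanol samples and 8.75, 9.31 and 10.29 in control samples. Ethanol 3 was its lowest sample and control 6 its highest. The Junb difference was -0.21 ± 0.26 (limma, adjusted p = 0.948).

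The Egr genes encode zinc finger factors that bind GC-rich sites, and Egr1, also called Zif268, is abundant in the resting striatum. Egr1 had 13.24, 13.58 and 13.79 in ethanol samples and 13.36, 13.64 and 14.21 in control samples, a difference of -0.17 ± 0.14 (limma, adjusted p = 0.900). Only control 1 and control 6 exceeded the highest ethanol sample. Egr2 had 7.64, 8.31 and 9.01 in ethanol samples and 7.70, 8.60 and 9.90 in control samples, a difference of -0.42 ± 0.37 (limma, adjusted p = 0.909). The low ends of the groups lay close together, and its top samples were again control 1 and control 6. Egr4 had 10.06, 10.41 and 10.84 in ethanol samples and 10.24, 10.65 and 11.36 in control samples. It had the smallest p of the 9, with a difference of -0.35 ± 0.20, a 95% interval of 0.586-fold to 1.05-fold and an unadjusted p of 0.0957 (limma, adjusted p = 0.855).

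Arc encodes a protein that drives AMPA receptors off the synaptic surface. It had 8.52, 9.52 and 10.44 in ethanol samples and 8.16, 9.01 and 10.78 in control samples. The 3 samples highest in Fos were also the 3 highest in Arc. The Arc difference was 0.22 ± 0.48 (limma, adjusted p = 0.975). Npas4, a factor that responds to calcium entry and acts on inhibitory synapses, had 5.86, 7.60 and 8.73 in ethanol samples and 6.11, 6.91 and 8.69 in control samples, a difference of 0.23 ± 0.52 (limma, adjusted p = 0.978). Unlike the others, it was highest in ethanol 6, with control 6 next. Dusp1, which switches off MAP kinases, had 10.06, 10.47 and 10.80 in ethanol samples and 9.78, 10.51 and 10.93 in control samples, a difference of -0.02 ± 0.20 (limma, adjusted p = 0.994).

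Within chips the direction differed for 3 genes. Fos was higher by 0.72 on chip 1 and lower (-0.47) on chip 2, Dusp1 stood at 0.26 and -0.29, and Npas4 at -0.02 and 0.47. The other 6 kept 1 direction on both chips. The difference between chips was tested as an interaction of exposure and chip. It called 0 of 9 genes (percent called over all probes: 0%) and had 0 of 9 at an unadjusted p under 0.05 (9.98% of all probes). The 3 genes with the smallest interaction p were Dusp1 at -0.55 ± 0.39 (limma, adjusted p = 0.656), Fos at -1.18 ± 1.00 (limma, adjusted p = 0.712) and Fosb at -0.24 ± 0.46 (limma, adjusted p = 0.887).

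**Figure D2:**
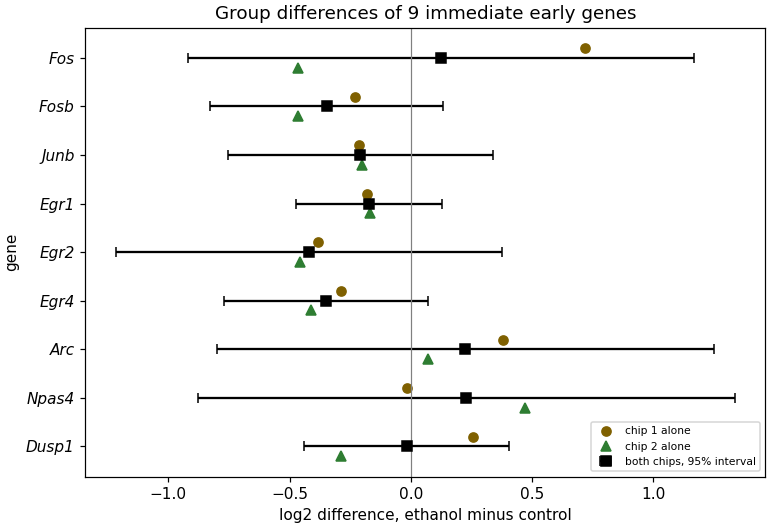
Log2 difference, ethanol minus control, for each of 9 immediate early genes, with a square and its 95% interval for all 12 samples, a circle for chip 1 alone and a triangle for chip 2 alone. Every interval crosses 0, and Fos, Npas4 and Dusp1 have opposite signs on the 2 chips.

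The spread among samples of the same group was large for most of these genes. The median tested probe had a within-group SD of 0.201 log2 units, with 0.342 at the 90th percentile and 0.513 at the 99th. Npas4 (SD 1.07), Fos (1.01) and Arc (0.991) ranked 10, 11 and 12 of 20296 probes, and Egr2 (0.765) ranked 32. Junb (0.518) also lay past the 99th percentile, at rank 190. Fosb (0.450), Dusp1 (0.393) and Egr4 (0.391) lay past the 90th, and Egr1 (0.267) ranked 5298. From the lowest to the highest of the 12 samples, Fos spanned 7.38-fold, Npas4 7.31-fold, Arc 6.18-fold, Egr2 4.79-fold, Junb 3.46-fold, Fosb 3.09-fold, Egr4 2.46-fold, Dusp1 2.22-fold and Egr1 1.95-fold. These folds depend on the background correction: in raw intensities Arc spanned 4.19-fold, Fos 3.25-fold, Egr2 3.12-fold, Npas4 2.78-fold and Junb 2.54-fold, and the other 4 genes 1.78- to 2.09-fold. The SD values and their ranks were taken after the same correction, and ranks in raw intensities were not tested. The lowest raw intensities were 185.2 for Fos and 179.6 for Npas4, where raw array medians were 136.1 to 153.2. The Fos SD was 0.643 in ethanol samples and 1.28 in control samples, and the difference in spread was not tested.

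The same samples were high or low for most genes. Control 6 was among the 3 highest samples for 9 of 9 genes, control 1 for 8 and ethanol 1 for 6. At the other end, ethanol 3 and control 3 were each among the 3 lowest for 8 genes, control 2 for 5 and ethanol 4 for 4. Averaged over the 9 genes in SD units, ethanol samples 1 to 6 stood at 0.63, -0.28, -1.10, -0.53, 0.07 and 0.32, and control samples 1 to 6 at 1.47, -0.76, -1.14, 0.27, -0.53 and 1.57. Both groups and both chips held samples above and below the mean. Ethanol 3 also had the lowest level of the striatal projection neuron list (11.84, against 12.16 to 12.29 in other ethanol samples), and the highest of all 12 samples for choroid plexus (11.07), microglia (9.13), meninges (7.95) and striatal interneurons (9.37). Thalamic markers stood at 8.30 in ethanol 3 and 8.49 in ethanol 4, against 7.28 to 7.33 in the other ethanol samples and 7.38 to 7.63 in control samples. Control 3, as low in immediate early genes as ethanol 3, had 12.23 for striatal projection neurons and 7.50 for thalamus. The part of these markers in the immediate early gene values was not tested.

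**Figure D3:**
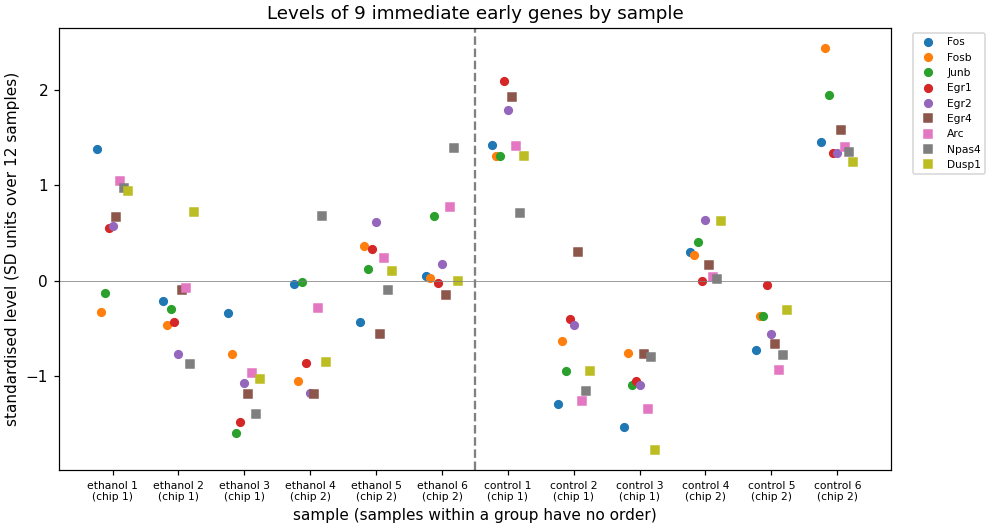
Level of each of 9 immediate early genes in each sample, in SD units from that gene's mean over 12 samples, with ethanol samples left of the dashed line and control samples right of it. Control 1 and control 6 have all or nearly all genes high, and ethanol 3 and control 3 have them low.

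The second question was how the genes vary together across the 12 samples. All 36 pairs of the 9 genes had a positive Pearson's r, from 0.523 (Egr4 and Npas4) to 0.943 (Egr1 and Egr2), with a median of 0.816. Spearman's rho ran from 0.476 to 0.951, with a median of 0.804. By permutation over samples (100000 resamples, two-sided), 35 of 36 pairs had an unadjusted p under 0.05 for Pearson's r and 34 for Spearman's rho. The largest were 0.0833 and 0.122, both for Egr4 and Npas4, and the smallest was 1e-05, the least that these resamples can give. How many pairs of other genes reach such a p was not tested. The 36 pairs come from 9 genes that were high or low in the same samples, so they are not separate results. The permutations also take the 12 samples as unrelated. With p adjusted over all probes in limma fits on either gene of a pair, 3 pairs passed: Fos with Arc, Egr1 with Egr2, and Egr1 with Egr4. Only Fos with Arc passed whichever gene was the covariate (limma, adjusted p = 0.00931 and 0.00901). In the fits on Egr2 and on Egr4, Egr1 did not pass (limma, adjusted p = 0.0654 and 0.220).

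**Figure D4:**
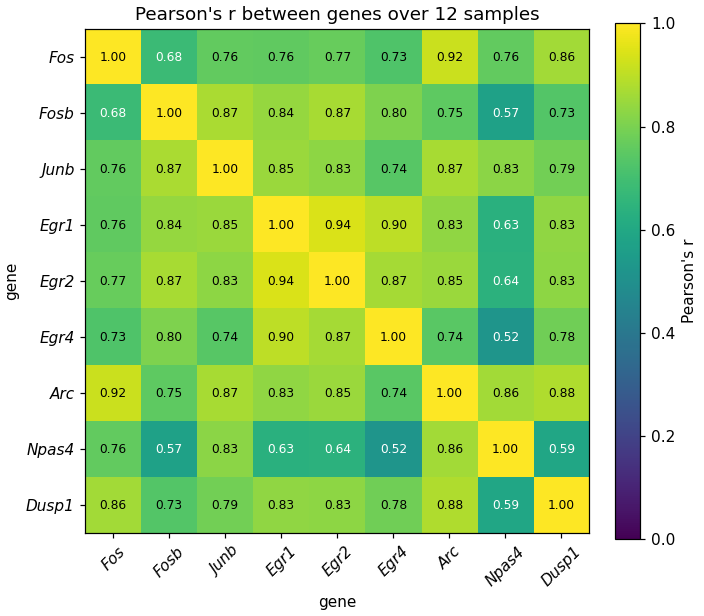
Pearson's r over 12 samples for each pair of 9 immediate early genes, from 0 (dark) to 1 (bright). The highest values are 0.94 for Egr1 and Egr2, 0.92 for Fos and Arc and 0.90 for Egr1 and Egr4. Npas4 has the lowest values, down to 0.52 with Egr4.

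Fos and Arc formed one tight pair, with r = 0.922 and rho = 0.888 (permutation p = 6e-05 and 0.00028), and r was 0.861 without control 1 and control 6, the samples farthest from the median of Fos. Egr1 formed other tight pairs with Egr2 and with Egr4, while Egr2 with Egr4 had r = 0.866. Egr1 with Egr2 had r = 0.943 and rho = 0.937, (permutation p = 1e-05 for both, the least possible), and r was 0.928 without ethanol 3 and control 1. Egr1 with Egr4 had r = 0.901 and rho = 0.832 (permutation p = 0.00012 and 0.0014), and r was 0.806 without the same 2 samples. Both correlations with Egr1 held on each chip, at 0.983 and 0.895 for Egr2 and 0.983 and 0.901 for Egr4 (chip 1, then chip 2). Fosb was closest to Junb (r = 0.873), Egr2 (0.870) and Egr1 (0.842), and its r with Fos, its relative in sequence, was 0.683.

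Over all 12 samples, Npas4 stood somewhat aside. Its r was 0.859 with Arc, 0.828 with Junb and 0.759 with Fos. With Egr1, Egr2, Egr4, Fosb and Dusp1 it lay between 0.523 and 0.643. In the 6 control samples alone Npas4 was not apart, with r from 0.828 (Egr4) to 0.980 (Fosb and Junb). In the 6 ethanol samples its r ran from 0.245 (Fosb) to 0.825 (Junb), and this difference between groups was not tested. The Npas4 probe was also dim, with a lowest raw intensity of 179.6 where raw array medians were 136.1 to 153.2. On chip 2 the r of Npas4 with Egr1 was 0.287, against 0.845 on chip 1, a difference between chips that was not tested. In the ranking of all probes by r to Npas4, 3 of the 8 other genes were in the top 1%, with a median rank of 509.5.

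The covariation rested in part on a few samples. Without the 2 samples farthest from the median of 1 gene of the pair, the median r was 0.677, with 36 of 36 pairs positive. Without ethanol 1, control 1 and control 6, the 3 samples with the highest Fos, it was 0.652, from 0.0295 (Fos and Egr4) to 0.968 (Fosb and Egr2). Fos with Arc was still at 0.796 there, Egr1 with Egr2 at 0.850 and Egr1 with Egr4 at 0.600. The median r was 0.862 on chip 1 and 0.818 on chip 2. In the 6 ethanol samples it was 0.625, with 35 of 36 positive and Fos with Fosb at -0.04, and in the 6 control samples it was 0.940, with none under 0.828. The difference between groups in covariation was not tested.

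To set these values against the rest of the array, every other tested probe was fitted on the level of Fos. Of 20295 probes, 1 had a positive slope past the adjusted threshold (0.00493%), and this was Arc, 1 of the 8 other genes. Arc changed by 0.91 ± 0.11 log2 units per log2 unit of Fos (limma, adjusted p = 0.00931). At an unadjusted p under 0.05 with a positive slope there were 400 probes (1.97%), among them 8 of 8 genes. All 8 were also in the top 1% of probes by r to Fos, from Arc at rank 1 and Dusp1 at rank 7 to Fosb at rank 114, with a median rank of 43.5. The other slopes ran from 0.21 ± 0.06 for Egr1 to 0.81 ± 0.19 for Npas4, and Dusp1 had 0.33 ± 0.06 (limma, adjusted p = 0.278).

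The Arc call depended on single samples. Its slope stayed between 0.89 and 0.95 when each sample was left out in turn, but the adjusted p was 0.0929 without control 1, 0.0711 without control 2, 0.0863 without control 3 and 0.108 without control 6 (limma). Without ethanol 1, control 1 and control 6 the slope was 0.94 with an adjusted p of 0.746, and 4 of 8 genes had an unadjusted p under 0.05 and a positive slope, against 1.9% of all probes in that fit. With group and chip as terms the adjusted p was 0.0519, at a slope of 0.89. With sample number as a block the Arc slope was 0.64 (limma, adjusted p = 0.790). Its size also moved with the processing. It was 1.28 without background correction, 1.24 with the authors' normalized intensities, 1.03 with an offset of 50 and 0.89 with median scaling, each past the threshold. Dusp1 had 0.51 without background correction and 0.49 with the authors' normalized intensities.

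Fits on the other genes gave few calls as well. The fit on Egr1 called 4 probes higher, among them Egr2 at 2.66 ± 0.27 (limma, adjusted p = 0.00181), Egr4 at 1.39 ± 0.21 (limma, adjusted p = 0.0465) and Dusp14, and 1 lower. The fit on Arc called Fos (limma, adjusted p = 0.00901) and Dusp5, and the fits on the other 6 genes called 0. With Junb as the covariate, as with Fos and Arc, 8 of 8 genes were in the top 1% of probes by r.

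**Figure D5:**
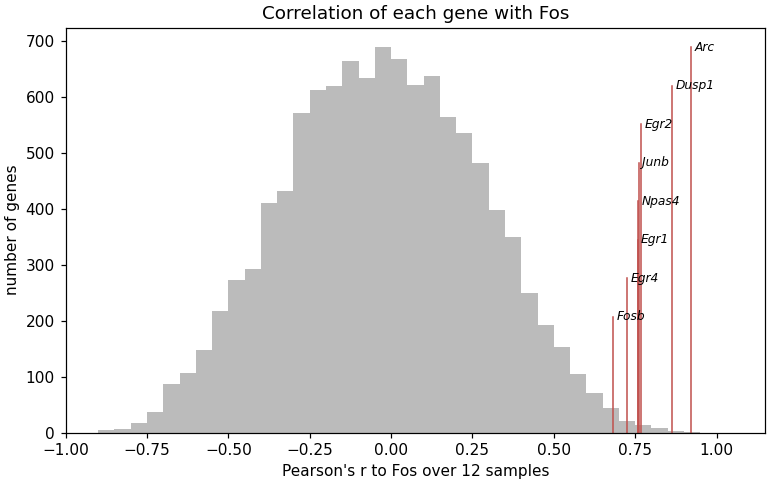
Number of genes (y axis) by Pearson's r to Fos over 12 samples (x axis), 1 probe per gene, with red lines at the other immediate early genes, whose heights only separate the names. The members lie between 0.68 and 0.92, at the right edge of a distribution centred near 0.

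Other genes of the same response were taken from lists written with earlier results of these data known. Of 25 listed rapid response transcription factors, 15 were tested. For exposure, 6 were higher and 9 lower, with a median difference of -0.09. In that comparison 0 passed the threshold and 0 had an unadjusted p under 0.05 (5.79% of all probes). With Fos, 0 passed the threshold and 2 had an unadjusted p under 0.05, both with a positive slope (1.50% of all genes). The median r was 0.167, against -0.0263 over all genes. Egr3, an Egr factor, had r = 0.749 to the mean of the 9 genes, and Fosl2, an AP-1 subunit, had 0.728. Srf, which encodes serum response factor, had 0.589. A dimmer probe for Egr3 had 0.384 and a dimmer one for Srf 0.239. The smallest exposure p values were those of Cebpb (-0.18 ± 0.09), Csrnp1 (-0.31 ± 0.17) and Cebpd (0.18 ± 0.11), with limma's adjusted p at 0.854 or above.

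Among rapid response effectors, 30 of 40 were tested, with 13 higher, 17 lower and 0 past the threshold for exposure (median difference -0.04). For exposure, 4 had an unadjusted p under 0.05 (5.79% of all probes). With Fos, 7 had an unadjusted p under 0.05 and a positive slope (1.50% of all genes) and 1 a negative one (2.33%). The median r was 0.218. Dusp5 and Dusp14, MAP kinase phosphatase relatives of Dusp1, had r of 0.929 and 0.870 to the mean of the 9 genes, ranks 5 and 11 of 10933 genes, and Vgf, a secreted neuropeptide precursor, had 0.851 (0.765 on its other probe). Dusp5 changed by 0.40 ± 0.07 per log2 unit of Fos (limma, adjusted p = 0.125). For exposure, Dusp5 had 6.85 to 7.65 in ethanol samples and 6.58 to 7.91 in control samples, a difference of -0.0048 ± 0.23 (limma, adjusted p = 0.999). Cdkn1a, a cell cycle inhibitor gene, had the smallest p of the list at -0.34 ± 0.11, followed by Amigo3 (0.24 ± 0.09) and Pim1 (0.22 ± 0.09), all with a limma adjusted p of 0.845.

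Kinases and factors upstream had correlations with Fos centred near that of all genes. Of 37 listed, 22 were tested, 9 higher and 13 lower with exposure, 3 at an unadjusted p under 0.05 (5.79% of all probes) and 0 called. With Fos, 0 had an unadjusted p under 0.05 and a positive slope and 1 a negative one, near the shares over all genes (1.50% and 2.33%), at a median r of 0.00626. The highest r to the mean of the 9 genes were Srf, Crtc2 (0.516), a coactivator of CREB, and Rps6ka5 (0.493), a kinase of CREB and histone H3, whose other probes had -0.265 and 0.140. Creb1, CREB itself, had 6.32 to 7.08 in ethanol samples and 5.96 to 6.42 in control samples, a difference of 0.30 ± 0.12 (limma, adjusted p = 0.845), with r = -0.159 to the mean. Elk4, a partner of serum response factor, differed by -0.30 ± 0.10 and Crtc3 by 0.25 ± 0.10 (limma, adjusted p = 0.845 for both), and a second Crtc3 probe had -0.22 ± 0.15.

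Glucocorticoid-responsive and clock genes share Per1 and were set beside the 9 genes. Of 18 tested glucocorticoid-responsive genes 4 were higher and 14 lower with exposure, and of 15 tested clock genes 4 were higher and 11 lower, with 0 called in each. Over all 10933 genes, 5220 were lower. For exposure, 2 glucocorticoid-responsive and 3 clock genes had an unadjusted p under 0.05 (5.79% of all probes). The direction counts of the lists were not tested. With Fos, 0 genes of either list had an unadjusted p under 0.05 and a positive slope, where 1.50% of all genes did, and 1 glucocorticoid-responsive gene had a negative one, where 2.33% of all genes did. Per1, a clock gene that is also rapidly induced, had r = 0.574 to the mean of the 9 genes, Cdkn1a 0.451, Npas2 0.376, Pdk4 0.325 and Per2 0.203. Cdkn1a, Sgk1 and Errfi1 are in both the glucocorticoid-responsive and the effector list. Per1 is also in the list of rapid response transcription factors, and Srf is in that list and the upstream one. The counts of these lists are therefore not separate. The 3 glucocorticoid-responsive genes with the smallest exposure p were Cdkn1a (-0.34 ± 0.11), Zbtb16 (-0.46 ± 0.20) and Sgk1 (-0.40 ± 0.19), without a call. Those of the clock list were Nr1d1 (-0.59 ± 0.20), Dbp (-0.49 ± 0.21) and Ciart (-0.93 ± 0.39), also without a call.

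List levels and array measures were also set against Fos, 20 relations in all. The mean level of the rapid response effectors had r = 0.743 (permutation p = 0.00625, adjusted over the 20 relations 0.125) and rho = 0.741 (permutation p = 0.00796, adjusted 0.159), and r was 0.507 without control 1 and control 6. In the other 19 relations the adjusted p was 0.983 for Pearson's r and 1 for Spearman's rho (permutation). These included striatal projection neurons (r = 0.0603), cortical excitatory neurons (-0.351), thalamus (-0.109), oligodendrocytes (-0.0072), meninges (-0.444), ependyma (0.336), raw median intensity (-0.0895) and number of probes detected (-0.0215). Against the mean of the 9 genes, the median r of single markers was -0.428 for choroid plexus and -0.383 for meninges (2 genes each), and -0.261 for thalamus (8 genes), where all genes had -0.0332. It was 0.309 for ependyma (3 genes), 0.280 for red blood cells (4 genes) and 0.271 for striatal projection neurons (11 genes). The other cell type lists lay between -0.126 (cortical excitatory neurons) and 0.185 (striatal interneurons). These medians were not tested. The cortical list had 9 of 14 markers tested and ranged from 7.97 to 8.49 in ethanol samples and 8.06 to 8.81 in control samples, and the thalamic list had 8 of 10 tested and ranged from 7.28 to 8.49 in ethanol samples and 7.38 to 7.63 in control samples.

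Outside these lists, the genes whose pattern over 12 samples was most like the mean of the 9 genes were Ube2v1 (r = 0.916), Tmsb10 (0.862), Hexa (0.848), Tyms-ps (0.841), Peli1 (0.831), Nop9 (0.826), Snrnp48 (0.820), Ldha (0.800), Rabgap1l (0.799), Nin (0.794), Zfp933 (0.791) and Tnfrsf25 (0.790). Most unlike were Mks1 (-0.896), Pigk (-0.878), Vdac2 (-0.876), Eif3j1 (-0.850) and Armc6 (-0.848). They were picked as the extremes of 10933 genes. Over the 12 samples the 17 genes spanned 0.30 (Hexa) to 1.65 log2 units (Tnfrsf25), while the 9 genes spanned 0.97 (Egr1) to 2.88 (Fos). Other probes of the same genes often did not share the pattern, with r of -0.0255 and 0.224 for Snrnp48 and 0.456, the opposite sign, for Pigk, while Zfp933 had 0.677 and 0.444 on its other probes. None of the 17 passed the threshold for exposure, with limma's adjusted p at 0.893 or above.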

How the data were processed

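Intensities of 45281 probes on 12 arrays were used, from the raw table deposited by the authors, which is linear and not normalized between arrays, and its detection p-values, per the file headers. A second table of linear intensities deposited by the authors, with quartiles shared by all arrays, was an alternative. The submitters' processing notes name GenomeStudio 1.9.0, and no source used here says whether it subtracted background. The neqc function of limma 3.58.1 (R 4.3.3) corrected the background by detection p-value, added 16, and returned quantile normalized log2 values.

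Differences (ethanol minus control) and slopes on Fos came from lmFit and eBayes, two-sided, with Benjamini-Hochberg adjustment over all tested probes. Pair correlations and their permutations used NumPy 2.4.6, with the ranks for Spearman's rho from SciPy 1.17.1. The number of arrays limits the precision (median SE of a difference 0.113). No array was treated as a copy, the closest pair being 0.272 log2 units apart (root mean square).

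The members and lists were chosen with earlier results of these data known. Where a gene had several tested probes, the brightest stood for it. Named beside the members were the 12 most like and 5 most unlike genes, and per list the 3 genes with the smallest p and the 3 with the highest r. Alternatives varied background, offset, scaling, filter, model terms and samples. The fit without ethanol 1, control 1 and control 6 was chosen after seeing the data.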

Additional observations from a re-analysis of the deposited data

Results flagged for a closer look

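Each group's lowest and highest sample was set against the rest of its group for 29 measures, 58 groups in all, and in 9 groups 1 sample lay far from the others, where chance gives about 1 in 20. Of 18 groups of immediate early gene values, 1 was such a case: Fos in ethanol 1 stood at 8.79, above the other ethanol samples at 7.04 to 7.50. The group difference of Fos without that sample was -0.13.

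The other 8 were list levels. The glucocorticoid response list was high in ethanol 2 (9.40, others 8.73 to 8.90). Striatal projection neuron markers were low in ethanol 3 (11.84, others 12.16 to 12.29) and in control 4 (12.04, others 12.18 to 12.23). Cortical excitatory neuron markers were high in ethanol 4 (8.49, others 7.97 to 8.16) and in control 2 (8.81, others 8.06 to 8.27). Ependymal markers were low in ethanol 4 (6.85, others 7.54 to 7.94). In control 4, oligodendrocyte markers (13.11, others 12.27 to 12.49) and striatal interneuron markers (9.19, others 8.93 to 8.98) were high. Of these samples, ethanol 3 was among the 3 lowest for 8 immediate early genes, control 2 for 5, ethanol 4 for 4 and ethanol 2 for 1. Control 4, flagged for 3 lists, was among the 3 lowest for 0 genes and among the 3 highest for 1. None of these samples was among the 3 highest in Fos. Their part in the immediate early gene values was not tested. No member's difference between chips passed the interaction test.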

How the results depend on the processing

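No setting brought an immediate early gene past the threshold for exposure, and 4 to 8 of the 9 genes were lower. The sign of small differences varied, with every adjusted p far from the threshold. Fos was -0.0117 without background correction, -0.00586 with the authors' normalized intensities, -0.47 on chip 2 alone, and -0.16 to 0.42 when samples were left out in turn. Dusp1 was 0.13 with array weights, 0.26 on chip 1 alone, 0.15 without ethanol 1, control 1 and control 6, and -0.15 to 0.0786 over left-out samples. Without those 3 samples Junb was 0.14, Arc 0.77 and Fos 0.60 (limma, adjusted p = 0.917 for Arc and Fos). Npas4 was -0.0163 on chip 1 alone and -0.0354 to 0.54 over left-out samples, and Arc -0.00998 to 0.52. Sgk1 was 0.0627 on chip 1 alone, -0.86 on chip 2 alone and -0.59 without ethanol 2 (limma, adjusted p = 0.272 and 0.387 in the last 2), and the Fosb interaction -0.55 to 0.15 over left-out samples. The cause of these changes was not tested.

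The number of probes with a positive slope on Fos past the threshold, 1 as reported, was 2 with an offset of 50, 3 among probes detected on all 12 arrays, 4 with trend and robust in eBayes (2 of them members, Arc and Dusp1), and 0 to 2 over left-out samples, with 0 to 1 members. It was 0, with 0 members, with group and chip as terms, without the 2 samples farthest in Fos, on either chip alone, and without the 3 samples above, fits with fewer samples or more terms. The median r over pairs was 0.625 in ethanol samples alone, 0.940 in control samples alone and 0.652 without the 3 samples. Same-numbered samples of the groups had deviations over all probes that correlated at -0.138 to 0.277 (-0.0963 to 0.160 within chips), and 2 of 6 ethanol samples correlated best with their own number, so the numbers were not taken as pairs. Immediate early gene levels, averaged in SD units, did run alike for some numbers (ethanol, then control). Numbers 1 (0.63, 1.47) and 6 (0.32, 1.57) were high in both groups, and 2 (-0.28, -0.76) and 3 (-1.10, -1.14) low. Numbers 4 (-0.53, 0.27) and 5 (0.07, -0.53) had opposite signs. Whether same-numbered samples are related was not tested, and the correlations take all 12 as separate. With a replicate block, 0 members passed for exposure, 0 probes and 0 members passed with Fos, the slope of Arc was 0.64 (limma, adjusted p = 0.790) and that of Npas4 -0.11. Signal over background leaves Nr4a1 unmeasured.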
